A study of Mus musculus with 21 samples.

Results

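Integrins are the receptors by which cells hold on to the matrix around them, and 9 of their subunit genes were followed here: the alpha chains Itga2, Itga3, Itga5, Itga6 and Itgav and the beta chains Itgb1, Itgb3, Itgb5 and Itgb8. They were chosen by name, as the integrin subunits listed for cumulus cells, with earlier results of these data known. Each was found by its symbol once among the 56980 genes of the deposited count table. The study sequenced RNA from whole mouse cumulus-oocyte complexes (COCs), an oocyte with its coat of cumulus granulosa cells, so every value holds RNA of both. It asks whether proprotein convertases, enzymes that cut precursor proteins into mature ones, act on the matrix and on cumulus cells through the oocyte factor GDF-9. All COCs came from ovaries of WT mice, whose strain and age the labels do not state.

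The treated COCs had PCI, a proprotein convertase inhibitor, at 10 µM for 4, 8 or 12 h of in vitro maturation. Their controls, CTL, had DMSO for the same times, and the START group was taken before culture, at 0 h. Cultured COCs of both arms shared a medium with serum and mouse epidermal growth factor, the signal that sets off cumulus expansion. Each of the 7 groups has 3 libraries, numbered in the labels as biological replicates. The labels do not say whether a replicate is 1 mouse or a pool, so the spread between libraries is that of these samples.

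An integrin is a pair of an alpha and a beta chain, and the pair sets the ligand. The chain pair of Itga5 and Itgb1 is the classical fibronectin receptor, Itgav pairs with several beta chains to bind ligands that carry the RGD tripeptide, such as vitronectin, osteopontin and latent TGF-beta, and Itga2 binds collagen with Itgb1, as Itga3 and Itga6 bind laminin. The alpha chains of Itga3, Itga5, Itga6 and Itgav are made as precursors that furin-like convertases cut, whereas that of Itga2 is not cut in this way. Transcript counts do not read that cut. During expansion, cumulus cells lay down a hyaluronan matrix and loosen their contacts, and integrins are among the links between these cells and fibronectin or laminin.

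Libraries held 19458618 to 37491828 counts, and all 9 genes passed the filter on low counts that left 18192 genes. Levels are CPM (counts scaled to library size), given as single libraries in the order of replicates 1, 2 and 3 or as mean ± SD (n = 3). A gene is called where edgeR's quasi-likelihood test gave a Benjamini-Hochberg adjusted p under 0.05 over the 18192 genes, and every adjusted p comes from that test unless another tool is named. All 10 granulosa markers and all 15 oocyte markers of the lists used were counted in every group. The oocyte markers summed to 14300, 9220 and 3460 CPM in START, to 6460, 15100 and 4020 CPM in PCI against 6150, 10300 and 7370 CPM in CTL at 4 h, and to 3860 to 5660 CPM in PCI against 4250 to 7300 CPM in CTL at 8 h. At 12 h they summed to 2370 to 3750 CPM in PCI, against 1750 to 2630 CPM in CTL. These sums differed between libraries of a group, most in START and in PCI at 4 h. In bulk COCs, fewer cells of a type and less RNA per cell cannot be told apart.

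Itga5 and Itgb5 are the 2 members whose level was called lower with PCI, and their promoters are shown to let the 2 be set side by side. Of the 9 genes, 7 had an entry by symbol in the RefSeq promoter table of GRCm38.p6, which covers 250 bases before to 50 bases after a gene's start. Itga6 and Itgb3 are named only. The sequences below run 5′ to 3′ on the gene's strand, with matches to the motifs searched in capitals. Itga5 lies at chr15:103366742-103367041 on the minus strand and Itgb5 at chr16:33829415-33829714 on the plus strand, both in GRCm38.p6.
Itga5: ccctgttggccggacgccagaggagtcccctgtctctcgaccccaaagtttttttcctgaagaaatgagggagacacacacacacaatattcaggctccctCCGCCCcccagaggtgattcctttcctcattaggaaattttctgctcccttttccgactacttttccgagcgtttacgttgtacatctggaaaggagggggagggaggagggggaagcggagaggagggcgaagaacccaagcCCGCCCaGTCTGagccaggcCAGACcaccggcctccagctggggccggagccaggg
Itgb5: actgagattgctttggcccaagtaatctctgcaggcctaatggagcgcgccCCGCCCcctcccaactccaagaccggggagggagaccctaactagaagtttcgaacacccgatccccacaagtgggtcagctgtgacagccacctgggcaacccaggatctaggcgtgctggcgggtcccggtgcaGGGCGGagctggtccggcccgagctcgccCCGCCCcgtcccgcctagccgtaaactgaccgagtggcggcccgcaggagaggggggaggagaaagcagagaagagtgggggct
The capitals in Itga5 mark 2 GC boxes (GGGCGG or its complement CCGCCC) and 2 SMAD boxes (GTCTG or CAGAC), and those in Itgb5 mark 3 GC boxes. Among all 32851 promoters of the table, 35.7% hold a GC box and 49.6% a SMAD box on either strand. The AP-1 site (TGANTCA), the CRE half-site (TGACG) and the TEAD site (GGAATG) were also searched on both strands and had no match in either window, where 7.81%, 20.8% and 14.7% of all promoters hold them. No matches overlapped. A match describes letters in a window and nothing about binding.

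**Figure D1:**
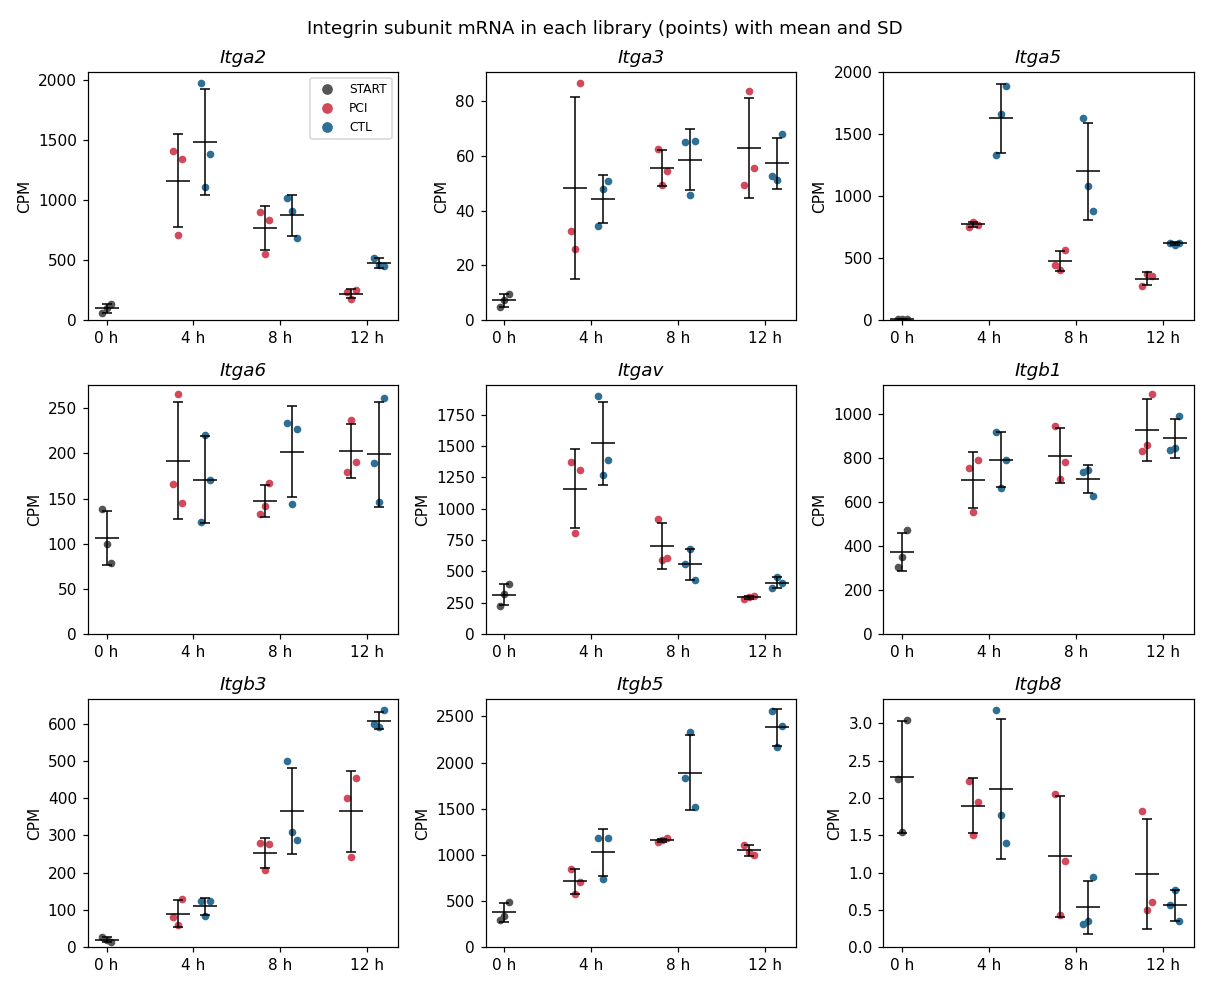
CPM of the 9 integrin genes in every library (linear axes from 0, 1 panel per gene), by group, with 3 points per group. Itga5 was at 10.4 to 14.8 CPM in START and at 278 CPM or more in every cultured library, and its PCI libraries lie below the CTL libraries at each time.

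Culture raised most of these genes. Against START, CTL at 4 h was called higher for 7 of the 9 genes, where 16.2% of all tested genes were called higher, and the 2 not called were Itga6 and Itgb8. At 8 h, 8 were higher and 1, Itgb8, was lower, where 20.7% of all genes were higher and 20.6% lower. At 12 h, 7 were higher and 1, Itgb8, was lower, where 25.1% were higher and 26% lower. Over the 9 genes the log2 fold changes had medians of 2.27, 2.32 and 2.26 at the 3 times, where all genes had -0.05, -0.08 and -0.06. The 14 other integrin subunits that were tested had medians of 0.1, -0.1 and -0.3. As the 9 were chosen with earlier results known, their counts and medians do not test integrins as a class. The 3 comparisons share the START libraries. All were rerun with the oocyte marker score of each library as a covariate, an alternative added after the data were seen, and 8 members were then higher at 4 h, 8 higher and 1 lower at 8 h, and 5 higher and 2 lower at 12 h. At 12 h the covariate ended the calls of Itga2 and Itgb1 and turned Itgav to a lower call. The oocyte marker sums of CTL at 12 h lay below those of START without overlap. The score and the time in culture can therefore not be told apart in that comparison. Of the 10 markers of granulosa cells 6 were called lower at each time in CTL against START (medians -1.4, -2.25 and -2 on the log2 scale). Their sums were 6990 to 16700 CPM in START, then 5030 to 7940, 2760 to 4350 and 2390 to 3290 CPM in CTL at 4, 8 and 12 h, and their part in the integrin values was not tested.

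**Figure D2:**
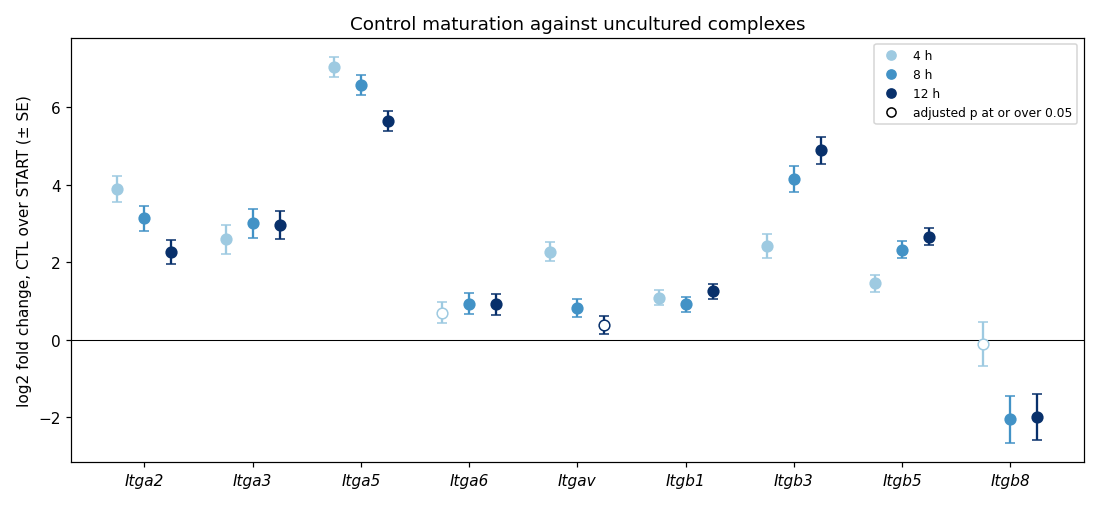
Log2 fold change of CTL over START (± SE) for each gene at 4, 8 and 12 h, with open points where the adjusted p was 0.05 or more. Itga5 lies highest at each time, Itgb3 and Itgb5 lie higher at 12 h than at 4 h, and Itga2 and Itgav lie lower.

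PCI lowered few of them. Against CTL at the same time, PCI was called lower for 1 of the 9 genes at 4 h, where 0.121% of all genes were called lower, for 1 at 8 h, where 1.72% were, and for 2 at 12 h, where 1.4% were. For the mean of the 3 times 2 were called lower, where 3.54% were. Itga5 was the gene called in all of these comparisons, and Itgb5 was also called at 12 h and in the mean. Over the 9 genes the log2 fold changes had medians of -0.28, -0.19 and -0.49 at 4, 8 and 12 h, where all genes had 0.04, -0.02 and 0.03. For a change of the PCI effect between times edgeR called 0 members (0 at an unadjusted p under 0.05, and 0 with DESeq2), where 0.0605% of all genes were called, so no order of the 3 times is read from the values below.

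**Figure D3:**
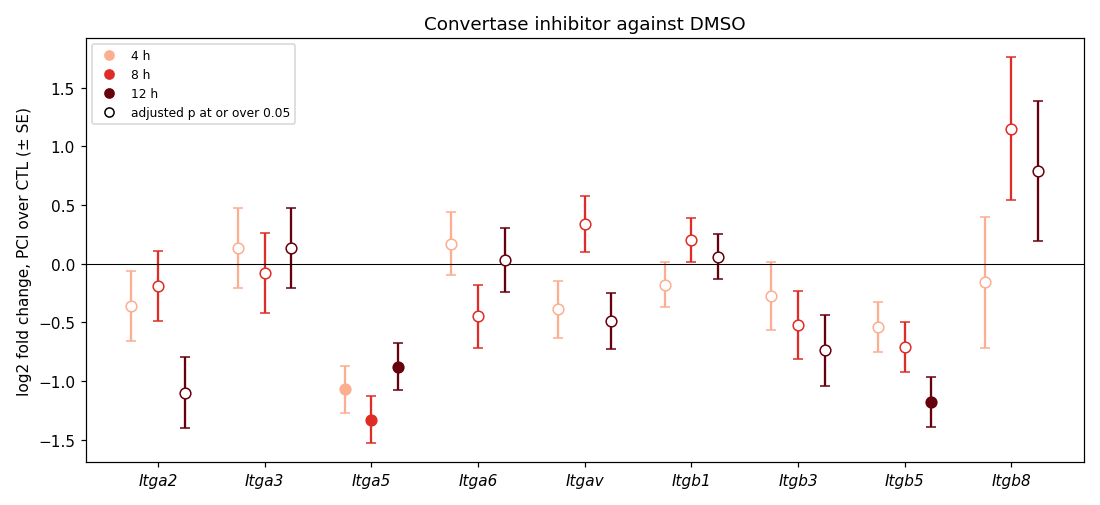
Log2 fold change of PCI over CTL (± SE) for each gene at 4, 8 and 12 h, with open points where the adjusted p was 0.05 or more. The filled points are Itga5 at all 3 times and Itgb5 at 12 h, all below 0.

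Itga5 (ENSMUSG00000000555, mm39 chromosome 15, 103252713 to 103275190, minus strand), the alpha chain of the fibronectin receptor, had the widest range of the 9. It was at 12.2, 14.8 and 10.4 CPM in START, then 1330, 1660 and 1890 CPM in CTL at 4 h, 1630, 1080 and 882 CPM at 8 h and 626, 610 and 625 CPM at 12 h. No CTL library came near the START range, and the highest CTL levels were at 4 and 8 h. Relative to START it rose by 7.03 ± 0.26 on the log2 scale in CTL at 4 h, 130-fold (adjusted p = 1.52e-12), and was still 49.7-fold higher at 12 h (log2 5.64 ± 0.25, adjusted p = 6.18e-12). CTL at 12 h was lower than CTL at 8 h, by -0.95 ± 0.20 (adjusted p = 0.00754), the only one of the 9 called in that step, where 4.17% of all genes were called lower. Without CTL 8 h replicate 1 that step was -0.66 (adjusted p = 0.0628).

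With PCI, Itga5 was at 756, 796 and 767 CPM at 4 h, against 1330, 1660 and 1890 CPM in CTL. At 8 h it was at 450, 410 and 567 CPM in PCI, against 1630, 1080 and 882 CPM in CTL, and at 12 h at 278, 376 and 357 CPM in PCI, against 626, 610 and 625 CPM in CTL. The arms did not overlap at any time. A lack of overlap with PCI lower was found for 3.83%, 11.7% and 11.2% of all genes at 4, 8 and 12 h. PCI libraries were lower by log2 -1.07 ± 0.20 at 4 h (adjusted p = 0.0419), -1.33 ± 0.20 at 8 h (adjusted p = 0.00112) and -0.88 ± 0.20 at 12 h (adjusted p = 0.0259). Over the 3 times the level in PCI was 0.468 of that in CTL (log2 -1.10 ± 0.12, adjusted p = 1.18e-05). PCI at each time was still far above START, whose highest library had 14.8 CPM.

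The calls of Itga5 at 8 h and in the mean held under every alternative run. The 4 h call did not: its adjusted p was 0.0574 with the replicate numbers as a block, 0.0595 with library size alone as the scale and 0.612 with only the libraries of that time. That call held with DESeq2 (adjusted p = 0.000412), whereas 14 of 21 leave-outs of a library ended it (adjusted p 0.0503 to 0.296, log2 fold change -1.24 to -0.96). Those were each CTL 4 h library, PCI 4 h replicates 1 and 3, CTL 8 h replicate 2, PCI 8 h replicates 1 and 2 and every library of 12 h. The 12 h call did not hold without any CTL 12 h library, or without PCI 12 h replicate 1 or 3 (adjusted p 0.0611 to 0.119). With the oocyte marker score as a covariate the mean difference was -1.10 (adjusted p = 1.75e-06).

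Itgav (ENSMUSG00000027087, chromosome 2, 83554741 to 83637260, plus strand), the alpha chain shared by the vitronectin-type receptors, peaked early. Its levels were 224, 322 and 398 CPM in START, then 1900, 1270 and 1390 CPM in CTL at 4 h, 561, 678 and 429 CPM at 8 h and 367, 451 and 409 CPM at 12 h. The 4 h libraries stood above the other CTL libraries, and the 12 h and START libraries overlapped. CTL was higher than START by 2.27 ± 0.25 at 4 h (adjusted p = 9.85e-07) and 0.82 ± 0.24 at 8 h (adjusted p = 0.0114), and by 0.38 ± 0.24 at 12 h, which was not called (adjusted p = 0.205). The 8 h call did not hold without START replicate 1 (0.66, adjusted p = 0.0521) or CTL 8 h replicate 2 (0.67, adjusted p = 0.0563), and at 12 h the gene was called without START replicate 3 (0.66, adjusted p = 0.0356). With the oocyte covariate the 12 h value turned to -0.93 (adjusted p = 0.00472). From 4 to 8 h CTL fell by 1.45 ± 0.25 (adjusted p = 0.000576).

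PCI left Itgav without a call in the main fit. Of 28 alternatives, 1 called Itgav lower at 12 h, that with only the libraries compared (adjusted p = 0.0449). It was at 1370, 802 and 1310 CPM in PCI, against 1900, 1270 and 1390 CPM in CTL at 4 h, and at 918, 587 and 607 CPM in PCI, against 561, 678 and 429 CPM in CTL at 8 h. At 12 h PCI libraries, at 276, 297 and 302 CPM, lay below the CTL libraries, at 367, 451 and 409 CPM. By replicate number, PCI was lower in 3 of 3 pairs at 4 and 12 h and in 1 of 3 at 8 h. The log2 differences were -0.39 ± 0.24, 0.34 ± 0.24 and -0.49 ± 0.24, with adjusted p of 1, 0.613 and 0.498. An antisense gene, Gm13684, overlaps Itgav and had at most 78 counts in a library, where Itgav had at least 5467.

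Itga2 (ENSMUSG00000015533, chromosome 13, 114969617 to 115068636, minus strand), the collagen-binding alpha chain, was high in culture at every time and lower later. It had 59.1, 106 and 135 CPM in START, then 1970, 1110 and 1380 CPM in CTL at 4 h, 1020, 910 and 687 CPM at 8 h and 521, 459 and 451 CPM at 12 h. The 3 sets of CTL libraries did not overlap with each other or with START. CTL was above START by 3.89 ± 0.33 at 4 h (adjusted p = 3.57e-08), 3.13 ± 0.32 at 8 h and 2.26 ± 0.31 at 12 h (adjusted p = 3.29e-07 and 8.35e-06). With the oocyte covariate the 12 h value was 0.77 (adjusted p = 0.0859). The steps between CTL times, -0.77 ± 0.30 and -0.87 ± 0.30, missed the threshold (adjusted p = 0.069 and 0.076).

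With PCI, no change of the Itga2 difference between times was called (adjusted p = 0.855). At 12 h Itga2 lay below CTL without overlap, at 236, 178 and 255 CPM in PCI, against 521, 459 and 451 CPM in CTL. At 4 h it was at 1410, 712 and 1340 CPM in PCI, against 1970, 1110 and 1380 CPM in CTL, and at 8 h at 901, 556 and 835 CPM in PCI, against 1020, 910 and 687 CPM in CTL. Between libraries of the same number, PCI was lower in 3 of 3 pairs at 4 and 12 h and in 2 of 3 at 8 h. The 12 h difference, -1.10 ± 0.30, was not called (adjusted p = 0.0712), and neither was the mean of the 3 times, -0.55 ± 0.17 (adjusted p = 0.0673, or 0.0393 with the replicate numbers as a block). DESeq2 called both (adjusted p = 0.012 and 0.0242), as did the fit with the oocyte covariate, at -0.82 and -0.57 (adjusted p = 0.011 and 0.000724). The 12 h value was also called without START replicate 1 or 3, PCI 4 h replicate 2 or PCI 8 h replicate 2 (adjusted p 0.0271 to 0.0488). The mean was also called without START replicate 1 or 3, CTL 4 h replicate 2 or CTL 8 h replicate 3 (adjusted p 0.0293 to 0.0471).

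Of the laminin-binding alpha chains, Itga3 was scarce before culture and Itga6 was not. Itga3 (ENSMUSG00000001507, chromosome 11, 94935300 to 94967627, minus strand) had 7.33 ± 2.42 CPM in START, then 44.3 ± 8.8, 58.5 ± 11.2 and 57.2 ± 9.32 CPM in CTL at 4, 8 and 12 h. The START libraries, at 4.95 to 9.79 CPM, lay below every cultured library. The log2 rises over START were 2.59 ± 0.37, 3.00 ± 0.37 and 2.96 ± 0.37 (adjusted p = 1.68e-05, 3.66e-06 and 3.1e-06). At 4, 8 and 12 h it was at 48.3 ± 33.2, 55.4 ± 6.55 and 62.7 ± 18.2 CPM in PCI, against 44.3 ± 8.8, 58.5 ± 11.2 and 57.2 ± 9.32 CPM in CTL, and no difference from CTL exceeded 0.13 in size on the log2 scale. At 4 h 1 PCI library, replicate 3, had 86.4 CPM beside 32.6 and 25.9 CPM in the others.

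Itga6 (ENSMUSG00000027111, chromosome 2, 71575960 to 71688760, plus strand), a laminin receptor chain that oocytes also carry, stayed within 1 log2 unit of START in CTL. It had 138, 100 and 78.6 CPM in START, then 171 ± 48.1, 202 ± 50.2 and 199 ± 58.5 CPM in CTL at 4, 8 and 12 h. CTL was higher than START by 0.93 ± 0.28 at 8 h (adjusted p = 0.011) and 0.91 ± 0.28 at 12 h (adjusted p = 0.00992), and by 0.70 ± 0.27 at 4 h, which was not called (adjusted p = 0.0602). The 8 h call did not hold without CTL 8 h replicate 1 (0.81, adjusted p = 0.0545) and the 12 h call without CTL 12 h replicate 3 (0.71, adjusted p = 0.0542), whereas 4 h was called without START replicate 1, CTL 4 h replicate 1, PCI 4 h replicate 2 or CTL 12 h replicate 3 (adjusted p 0.0147 to 0.0431). At the 3 times it was at 192 ± 64.6, 147 ± 17.6 and 203 ± 29.9 CPM in PCI, against 171 ± 48.1, 202 ± 50.2 and 199 ± 58.5 CPM in CTL, and no time was called (adjusted p = 1, 0.511 and 0.996). Its highest library, at 266 CPM, was PCI 4 h replicate 2, the library with the most oocyte marker RNA. The replicates ranked alike for Itga6 and the oocyte marker sum in START, both arms at 4 h and PCI at 8 h. They did not in CTL at 8 h or in either arm at 12 h. In CTL at 12 h Itga6 was at 189, 146 and 261 CPM, where the oocyte markers summed to 2630, 1750 and 2160 CPM. The covariate fit gave 2.36 for CTL at 12 h over START (adjusted p = 4.07e-06). The oocyte marker sums of these groups did not overlap, so the fit cannot separate oocyte RNA from time in culture. The part of oocyte RNA in these levels was not tested.

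Itgb1 (ENSMUSG00000025809, chromosome 8, 129412135 to 129459681, plus strand), the beta chain that pairs with most alpha chains here, rose over START at each time. It had 303, 350 and 471 CPM in START, then 791 ± 125, 704 ± 64.6 and 890 ± 87.9 CPM in CTL at 4, 8 and 12 h. All CTL libraries were above all START libraries. The rises over START were 1.08 ± 0.19 at 4 h, 0.91 ± 0.19 at 8 h and 1.25 ± 0.19 at 12 h (adjusted p = 0.000176, 0.000805 and 2.7e-05), and with the oocyte covariate the 12 h value was 0.34 (adjusted p = 0.221). By time it was at 700 ± 129, 811 ± 123 and 927 ± 141 CPM in PCI, against 791 ± 125, 704 ± 64.6 and 890 ± 87.9 CPM in CTL. The mean difference between the arms was 0.03 ± 0.11 on the log2 scale (adjusted p = 0.964), and the arms overlapped at each time.

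Itgb5 (ENSMUSG00000022817, chromosome 16, 33650035 to 33769708, plus strand), a partner of Itgav in the vitronectin receptor, was higher later in control culture. It was at 302, 344 and 489 CPM in START, then 1180, 744 and 1180 CPM in CTL at 4 h, 1830, 2330 and 1520 CPM at 8 h and 2560, 2170 and 2400 CPM at 12 h. The 8 h libraries lay above all 4 h libraries, and the 8 and 12 h libraries overlapped. The rises over START were 1.45 ± 0.21, 2.32 ± 0.22 and 2.65 ± 0.22 (adjusted p = 2.29e-05, 1.05e-07 and 1.74e-08). The step from 4 to 8 h, 0.87 ± 0.21, was called (adjusted p = 0.00616), and the step from 8 to 12 h, 0.33 ± 0.21, was not (adjusted p = 0.375).

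With PCI, Itgb5 was at 850, 580 and 710 CPM at 4 h, against 1180, 744 and 1180 CPM in CTL, and the arms overlapped. At 8 h it was at 1140, 1160 and 1180 CPM in PCI, against 1830, 2330 and 1520 CPM in CTL, and at 12 h at 1110, 1030 and 998 CPM in PCI, against 2560, 2170 and 2400 CPM in CTL. Both later times were without overlap, and the PCI libraries at 8 and 12 h held within 998 to 1180 CPM. In the pairs of libraries with the same number, PCI was lower in 3 of 3 at each time. The difference was -0.54 ± 0.21 at 4 h (adjusted p = 0.706), -0.71 ± 0.21 at 8 h (adjusted p = 0.0701) and -1.18 ± 0.21 at 12 h (adjusted p = 0.0045). The mean of the times was -0.81 ± 0.12 (adjusted p = 0.000254), or 0.571 of the CTL level. The stroma markers had sums of 3.44 to 5.14 CPM in PCI, against 4.23 to 6.35 CPM in CTL at 4 h. Their sums were 6.15 to 9.21 CPM in PCI, against 12.7 to 24 CPM in CTL at 8 h. At 12 h they were 5.85 to 7.96 CPM in PCI, against 17.4 to 26.6 CPM in CTL. Of the 6 markers 4 were tested, of which 1 was called lower at 8 h (1.72% of all genes) and 1 at 12 h (1.4%). Lum and Tcf21 were at 0 in both arms at these times. At 8 h, Col1a1 and Pdgfra averaged 2.25 and 3.7 CPM in PCI, against 6.41 and 10.3 CPM in CTL, and Dcn 1.6 CPM in PCI, against 0.517 CPM in CTL. At 12 h, Col1a1 and Pdgfra averaged 1.32 and 4.59 CPM in PCI, against 11.3 and 8.49 CPM in CTL, and Dcn 0.922 CPM in PCI, against 0.894 CPM in CTL. The part of the stroma markers in the integrin differences was not tested.

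The 12 h and mean calls of Itgb5 held under every alternative run. The 8 h difference was called with library size alone (adjusted p = 0.0282), with no filter (0.0186), with DESeq2 (0.0149), with only the libraries of that time (0.0331) and with the oocyte covariate (-0.83, adjusted p = 0.0028), and without START replicate 1 or 3, CTL 4 h replicate 2 or CTL 8 h replicate 3 (adjusted p 0.0264 to 0.0495).

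Itgb3 (ENSMUSG00000020689, chromosome 11, 104498826 to 104561302, plus strand), the other vitronectin receptor beta chain, rose over START at each time. It had 27.3, 20.2 and 14.2 CPM in START, then 124, 83 and 124 CPM in CTL at 4 h, 499, 310 and 287 CPM at 8 h and 598, 591 and 635 CPM at 12 h. The libraries of each time lay above all those of the time before. The rises over START were 2.42 ± 0.31, 4.15 ± 0.34 and 4.89 ± 0.35 (adjusted p = 5.35e-06, 1.6e-08 and 2.2e-09), and CTL at 8 h was above CTL at 4 h by 1.73 ± 0.30 (adjusted p = 0.000669). The step from 8 to 12 h, 0.73 ± 0.30, was not called (adjusted p = 0.135). With PCI it was at 279, 208 and 276 CPM at 8 h, against 499, 310 and 287 CPM in CTL, and at 400, 243 and 453 CPM at 12 h, against 598, 591 and 635 CPM in CTL. The arms did not overlap at either time, yet the differences, -0.52 ± 0.29 and -0.74 ± 0.30, were not called (adjusted p = 0.466 and 0.319). At 4 h it was at 81.2, 59.7 and 131 CPM in PCI, against 124, 83 and 124 CPM in CTL. The mean over times, -0.51 ± 0.17, missed the threshold (adjusted p = 0.0897, or 0.0353 with the replicate numbers as a block) and was called without PCI 4 h replicate 3 (-0.64, adjusted p = 0.0221).

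Itgb8 (ENSMUSG00000025321, chromosome 12, 119121757 to 119202537, minus strand), whose pair with Itgav binds latent TGF-beta, was the scarcest of the 9 and the only one called lower in CTL than in START. Its counts were 8 to 92 in a library. It was at 2.26, 1.54 and 3.04 CPM in START, then 3.18, 1.77 and 1.4 CPM in CTL at 4 h, 0.317, 0.356 and 0.948 CPM at 8 h and 0.568, 0.773 and 0.35 CPM at 12 h. CTL at 8 and 12 h lay below START, by -2.06 ± 0.61 (adjusted p = 0.0105) and -1.99 ± 0.60 (adjusted p = 0.00967). The 8 h call did not hold without CTL 8 h replicate 1 or 2 (adjusted p = 0.0543 and 0.0557) and the 12 h call without CTL 12 h replicate 3 (adjusted p = 0.0525). The fall from 4 to 8 h, -1.96 ± 0.61 (adjusted p = 0.0256), did not hold without CTL 4 h replicate 1 or CTL 8 h replicate 1 or 2 (adjusted p 0.102 to 0.12). PCI and CTL overlapped at all times, and their differences of -0.16 ± 0.56, 1.15 ± 0.61 and 0.79 ± 0.60 were not called (adjusted p = 1, 0.42 and 0.791).

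Between CTL times, 2 members were higher at 8 h than at 4 h, Itgb3 and Itgb5, where 12.1% of all genes were called higher, and 2 were lower, Itgav and Itgb8, where 11.1% were called lower. The beta chains of the vitronectin receptors were thus higher at 8 h and their shared alpha chain lower. These steps share libraries with the comparisons against START.

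Levels of different genes were set on 1 scale as CPM per kilobase (kb), dividing by the length of the gene's exons merged in GENCODE M21. At 12 h the means of PCI and of CTL fell in the same order, from the highest Itgb5, Itgb1, Itga5, Itgb3, Itga2, Itgav, Itga6, Itga3 and Itgb8. In PCI, Itga5 (68.3 ± 10.5 CPM per kb) overlapped Itgb3 (61.9 ± 18.5), and Itga2 (31.3 ± 5.62) overlapped Itgav (27.1 ± 1.28), which overlapped Itga6 (22.5 ± 3.35). In CTL the values were 669 ± 55.2 CPM per kb for Itgb5, 218 ± 21.5 for Itgb1, 126 ± 1.82 for Itga5, 103 ± 4.01 for Itgb3, 66.9 ± 5.37 for Itga2, 38.1 ± 3.91 for Itgav, 22.0 ± 6.44 for Itga6, 10.0 ± 1.63 for Itga3 and 0.051 ± 0.0191 for Itgb8, with no overlap of libraries between neighbours. In START, Itgb5 (106 ± 27.6) and Itgb1 (91.8 ± 21.2) overlapped, as did Itga2 (14.0 ± 5.37) with Itga6 (11.7 ± 3.33) and Itgb3 (3.49 ± 1.11) with Itga5 (2.53 ± 0.448), and Itgav (29.3 ± 8.12) led the alpha chains. The lengths come from another build and release than the authors' counting, so they bear on orders between genes and not on changes of a gene.

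**Figure D4:**
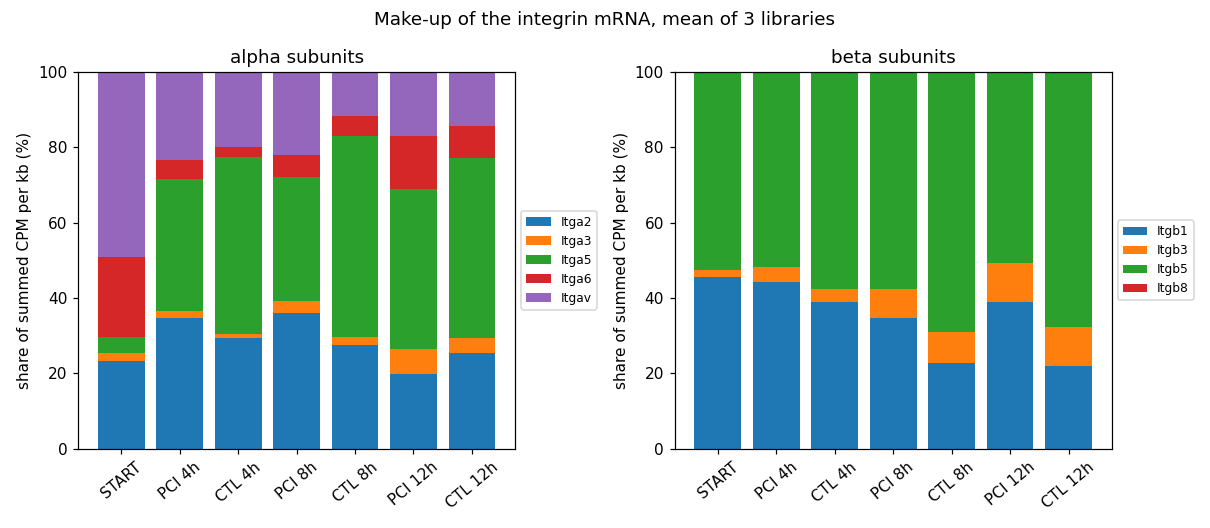
Share of each alpha chain among the 5 alpha chains and of each beta chain among the 4 beta chains, from CPM per kb, by group (mean of 3 libraries). Itgav is the largest alpha share in START and Itga5 in CTL at each time, and Itgb5 is the largest beta share in every group.

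Expressed as shares, the alpha chains changed places in culture. Itgav made up 49.2% ± 5.24 of the alpha chains in START, and Itga5 made up 4.41% ± 1.16. At 4 h Itga5 held 35.1% ± 7.36 in PCI and 47.0% ± 9.21 in CTL, at 8 h 32.9% ± 4.53 in PCI and 53.3% ± 4.64 in CTL, and at 12 h 42.5% ± 2.94 in PCI and 47.9% ± 0.68 in CTL. The arms overlapped in this share at 4 h and not at 8 or 12 h. Itga2 held 34.7% ± 6.74 in PCI and 29.3% ± 6.97 in CTL at 4 h and 36.0% ± 3.11 in PCI and 27.4% ± 2.01 in CTL at 8 h, and in PCI at both times its libraries overlapped those of Itga5.

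Among the beta chains, Itgb5 held 50.7% ± 4.93 in PCI and 67.5% ± 2.34 in CTL at 12 h, and Itgb1 held 38.8% ± 3.94 in PCI and 22.0% ± 1.93 in CTL. At 8 h, Itgb5 held 57.6% ± 3.85 in PCI and 69.2% ± 3.99 in CTL, and Itgb1 34.8% ± 3.34 in PCI and 22.7% ± 2.03 in CTL. The arms did not overlap in either share at 8 and 12 h. In START, Itgb5 held 52.5% ± 1.11 and Itgb1 45.5% ± 0.513. Shares within a chain are tied to each other, so a lower Itgb5 raises the others, and they are given as a description.

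Of 18 further integrin subunit genes, 14 passed the filter. With PCI, 1 of them was called lower at 12 h (1.4% of all genes) and in the mean (3.54%), Itga1, another collagen-binding alpha chain. It was at 15.2, 19.2 and 18.3 CPM in PCI, against 48.1, 34.4 and 42 CPM in CTL at 12 h (-1.24 ± 0.29, adjusted p = 0.0285), without overlap. In culture, Itga7, a laminin receptor chain, was at 0.288 ± 0.121 CPM in START, then 4.13 ± 1.23, 7.18 ± 4.73 and 4.91 ± 0.514 CPM in CTL at 4, 8 and 12 h, called higher each time (adjusted p = 2.6e-06, 3.21e-07 and 1.01e-06). Itga11, a collagen-binding chain, was at 14 ± 9.06 CPM in CTL at 12 h, against 0.887 ± 0.749 CPM in START (adjusted p = 3.88e-05). At 12 h in CTL, 3 of the 14 were higher than in START, near the share of all genes (25.1%). Itga9 was near the level of Itga6 per kb in CTL at 12 h, at 18.9 ± 1.09 CPM per kb, and was called in no comparison. The sums of stroma markers, given beside Itgb5, were lower at the same time, and their part in Itga1 was not tested. The 6 leukocyte markers, of which 5 were tested, summed to 7.4 to 10.2 CPM in PCI, against 11.7 to 15.5 CPM in CTL at 12 h and 3.21 to 8.1 CPM in START. In CTL at 12 h, 2 of these markers were called higher and 1 lower than in START (25.1% and 26% of all genes). Cd68 averaged 6.17 CPM in PCI, against 10.1 CPM in CTL at 12 h, and 1.33 CPM in START, whereas Ptprc was at 0.0103 CPM in PCI and at 0 in all CTL libraries at 12 h. The part of leukocyte RNA in the integrin values was not tested. The platelet markers summed to at most 2.4 CPM in any library.

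Among 18 ligands of the RGD type, 17 passed the filter. In the mean over times, 2 were higher and 3 lower with PCI, where 2.53% of all genes were called higher and 3.54% lower, at a median log2 change of 0.18 (0.03 over all genes). Edil3, a ligand of the Itgav receptors, was higher, at 6.24 ± 2.8 CPM in PCI, against 0.787 ± 0.194 CPM in CTL at 8 h (2.98 ± 0.64, adjusted p = 0.0099) and at 8.66 ± 1.5 CPM in PCI, against 1.36 ± 0.0277 CPM in CTL at 12 h (2.67 ± 0.62, adjusted p = 0.0258). Spp1, which encodes osteopontin, was higher in the mean (1.11 ± 0.22, adjusted p = 0.00385), with 27900 ± 2160 CPM in PCI, against 16800 ± 1470 CPM in CTL at 12 h, and was called at no single time (adjusted p = 0.424, 0.0672 and 0.549 at 4, 8 and 12 h). Tnc, tenascin C, was lower, at 393, 302 and 628 CPM in PCI, against 820, 930 and 799 CPM in CTL at 12 h (-0.95 ± 0.20, adjusted p = 0.0162). Fn1, fibronectin, the ligand of the Itga5 receptor, was at 576, 252 and 664 CPM in PCI, against 215, 230 and 276 CPM in CTL at 12 h and was not called at any time or in the mean. In control culture, 11 of the 17 were higher and 2 lower at 12 h than in START, where 25.1% and 26% of all genes were. The median of the 17 was 1.26 (-0.06 over all genes). Spp1 was at 16700, 15400 and 18300 CPM in CTL at 12 h, against 0.0332, 0.0656 and 0.239 CPM in START. Vtn, vitronectin, was the ligand that did not pass the filter.

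Of 20 laminin and collagen genes, all were tested. With PCI, 4 were lower in the mean, where 3.54% of all genes were, at a median of -0.03 (0.03 over all genes). Lama1, a laminin alpha chain, was at 738, 1360 and 713 CPM in PCI, against 2000, 1760 and 2410 CPM in CTL at 12 h (-1.14 ± 0.24, adjusted p = 0.0145). Col1a1 was at 1.32 CPM in PCI, against 11.3 CPM in CTL on average at 12 h (-3.06 ± 0.66, adjusted p = 0.0184), and it is itself a stroma marker. In control culture, 6 of the 20 were higher and 6 lower at 12 h than in START, near the shares of all genes (25.1% and 26%), with Col4a1 and Col4a2, chains of basement membrane collagen, up by 7.11 ± 0.41 and 6.19 ± 0.33 (adjusted p = 1.14e-10 and 5.08e-11). Of 8 genes of the latent TGF-beta complex, 1 was lower with PCI in the mean (3.54% of all genes), Tgfb1 (-0.64 ± 0.12, adjusted p = 0.00262). The median of the 8 was 0.04. At 12 h in CTL, 2 of the 8 were higher and 2 lower than in START, near the shares of all genes (25.1% and 26%).

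Inside the cell, of 20 adaptors of adhesions that were tested, 1 was higher with PCI in the mean (2.53% of all genes), at a median of 0.04. That was Vcl, vinculin, at 236 CPM in PCI, against 96.4 CPM in CTL on average at 8 h (1.29 ± 0.24, adjusted p = 0.0036). Tns3, a tensin, was higher at 12 h, at 133 CPM in PCI, against 48.3 CPM in CTL (1.46 ± 0.28, adjusted p = 0.00799). Of 19 kinases and GTPase links, 2 were higher with PCI in the mean (2.53% of all genes), at a median of 0.01. Ptk2b, a relative of focal adhesion kinase, was at 244 CPM in PCI, against 72.5 CPM in CTL at 12 h (1.75 ± 0.41, adjusted p = 0.0287). Elmo1, which helps activate Rac, was at 34.1 CPM in PCI, against 6.42 CPM in CTL (2.40 ± 0.37, adjusted p = 0.00162). In control culture, 13 adaptors were higher and 3 lower at 12 h than in START, and 9 kinases and links were higher and 3 lower. Of all genes, 25.1% were higher and 26% lower in that comparison.

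At the membrane, 10 partners of integrins were tested. With PCI, 1 of them was higher and 1 lower in the mean (2.53% and 3.54% of all genes), at a median of 0.02. Plaur, the urokinase receptor, was lower, at 10.5 CPM in PCI, against 29.4 CPM in CTL at 12 h (-1.48 ± 0.35, adjusted p = 0.0296), and Cav1, caveolin, was higher at 8 h, at 83.7 CPM in PCI, against 38.9 CPM in CTL (1.11 ± 0.28, adjusted p = 0.0305). Of 10 genes of integrin traffic, 1 was lower with PCI in the mean (3.54% of all genes), Dab2, an endocytic adaptor of integrins. Dab2 was at 452 CPM in PCI, against 1250 CPM in CTL on average at 8 h (-1.47 ± 0.24, adjusted p = 0.00152) and at 228 CPM in PCI, against 531 CPM in CTL at 12 h (-1.22 ± 0.23, adjusted p = 0.00799). For 8 convertase genes, the inhibitor's targets and relatives, edgeR called 0 with PCI in the mean (3 at an unadjusted p under 0.05, and 0 with DESeq2). Pcsk5 was at 1460 CPM in PCI, against 1010 CPM in CTL on average at 12 h, and Furin at 405 CPM in PCI, against 494 CPM in CTL.

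Across the 21 libraries, each member was matched by Pearson correlation of log2 CPM to the 14522 other protein-coding genes with an established symbol, as a description over libraries that share time in culture. The closest genes to Itga5 were Flnc (r = 0.993), Ncs1 (0.992) and Procr (0.986), and those to Itgb5 were Nudt4 (0.97), Gpr153 (0.966) and Cplane1 (0.96). Itgb3 was closest to Col18a1 (0.976), Col4a2 (0.976) and Igfbp6 (0.975), and Itga2 to Btc (0.968), Tuba1c (0.963) and Tro (0.963). Itga3 was nearest to Star (0.962), Itgav to Slc44a1 (0.961), Itgb1 to Wipi2 (0.967), Itga6 to Syt12 (0.809) and Itgb8 to Slitrk1 (0.849). Among the members themselves the highest value was that of Itgb3 and Itgb5 (0.894) and the lowest that of Itgb3 and Itgb8 (-0.682).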

How the data were processed

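RNA of whole COCs was sequenced in 21 libraries with a stranded poly(A) kit, per the labels' protocols. The table the authors deposited holds unnormalized counts for each gene, made with cutadapt, STAR on mm39 and HTSeq, per the submitters' processing notes. Not given in the sources used here are the tools' versions, the annotation and how HTSeq treated strand, so reads of a gene and an antisense partner may not be told apart. Positions are those of the deposited table. The 9 integrin genes and the gene lists were chosen with earlier results of these data known.

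Counts were analysed in R 4.3.3 with edgeR 4.0.16 and limma 3.58.1 (filterByExpr, TMM scaling, 1 mean per group, 14 residual degrees of freedom, robust quasi-likelihood F test, two-sided). The filter left 18192 genes with at least 99.921% of each library's counts. The biological coefficient of variation was 29.5%. The SE of a log2 fold change is its size over the root of its F. Log2 CPM used a prior count of 2. The fits were tested on simulated data. Named genes were the members, the other integrin subunits, and up to 3 of each list with the smallest p for the mean PCI effect and for CTL at 12 h against START, plus Spp1, Fn1 and Vtn. Replicate pairs differed by a chi-square per degree of freedom of 25.6 to 310, so none were merged. Alternatives were other scalings, no filter, DESeq2 1.42.0, only the libraries compared, a replicate block, each library left out, and an oocyte marker covariate added later. The labels do not state that same-numbered libraries are paired. Deviations of same-numbered PCI and CTL libraries from their group means correlated at 0.325, 0.524 and 0.143 at 4 h and 0.167, 0.108 and 0.267 at 8 h. At 12 h they correlated at 0.227, 0.0424 and 0.17, which does not reach 0.1 in each. These values do not settle whether the libraries are paired. The main fit has no block, and counts by replicate number are a description. Intervals and tests cover the spread between these libraries. Promoter sequences are RefSeq's, GRCm38.p6, a build other than that of the counts. Gene lengths are from GENCODE M21 on GRCm38, matched by Ensembl ID.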

Additional observations from a re-analysis of the deposited data

How the results depend on the processing

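The number of integrin genes called moved between settings, and not every move is listed here. For PCI against CTL at 4 h it was 0 with library size alone, with only the libraries compared and with the replicate block, instead of 1. At 8 h it was 2 with library size alone, no filter, DESeq2, only the libraries compared or the oocyte covariate, instead of 1. At 12 h it was 4 with only the libraries compared and 3 with DESeq2, instead of 2. For the mean of the times it was 3 with DESeq2 and 4 with the replicate block, instead of 2. The block added Itga2 (adjusted p = 0.0393) and Itgb3 (0.0353). At 12 h, where the deviations of same-numbered libraries did not all correlate above 0.1, the block gave Itga2 an adjusted p of 0.0446. The block changed no other integrin call than these and that of Itga5 at 4 h. For CTL at 8 h against CTL at 4 h the number was 7 with the covariate and 5 with DESeq2, instead of 4. For CTL at 12 h against CTL at 8 h it was 2 with library size alone or DESeq2 and 3 with only the libraries compared or the covariate, instead of 1. With 1 library left out it ranged from 0 to 1 at 4 h, 1 to 2 at 8 h, 1 to 3 at 12 h and 2 to 3 for the mean of PCI against CTL, stayed at 0 for the change between times, and ranged from 7 to 8, 7 to 9 and 6 to 9 for CTL at 4, 8 and 12 h against START, from 3 to 5 for CTL at 8 h against 4 h and from 0 to 2 for CTL at 12 h against 8 h. The cause was not tested. Among all genes, 24 were called at 4 h for PCI against CTL, and 46 with no filter, 114 with DESeq2, 0 with only the libraries compared and 75 with the covariate. DESeq2 called 1084 at 8 h and 683 at 12 h, instead of 667 and 361, and the covariate 1054, 779 and, for the mean, 1829, instead of 1104. With only the libraries compared, 799 were called at 12 h and 3780 for CTL at 4 h against START, instead of 5734. For the change between times, 11 were called, and 4 with RLE, 57 with no filter, 185 with DESeq2, 29 with only the libraries compared, 0 with the block and 127 with the covariate. The covariate gave 5620 for CTL at 12 h against START, instead of 9286. For CTL at 12 h against 8 h, 1601 were called, and 2404 with DESeq2, 3005 with only the libraries compared and 3084 with the covariate. Library size alone moved the median of all genes for CTL at 4 h against START to -0.17, instead of -0.05.

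Some log2 fold changes turned with the covariate. Itga3 at 4 h for PCI against CTL was 0.00, Itga6 at 12 h -0.22, Itgav for CTL at 12 h against START -0.93, and for CTL at 12 h against 8 h Itga6 was 1.02, Itgb1 -0.34, Itgb5 -0.26 and Itgb8 -0.58. The oocyte marker sums were 1750 to 2630 CPM in CTL at 12 h, 4250 to 7300 CPM in CTL at 8 h and 3460 to 14300 CPM in START. The CTL 12 h range overlaps neither of the others, so the covariate cannot be told apart from time in culture in these CTL comparisons. With 1 library left out, differences that were not called crossed 0. For PCI against CTL at 4 h these were Itga3 (-0.58 to 0.44), Itga6 (-0.14 to 0.41) and Itgb8 (-0.39 to 0.22), at 8 h Itga3 (-0.24 to 0.01), at 12 h Itga3 (-0.15 to 0.26), Itga6 (-0.16 to 0.27), Itgb1 (-0.09 to 0.13) and Itgb8 (-0.09 to 1.10), and in the mean Itga3 (-0.18 to 0.16) and Itgb1 (-0.02 to 0.07). In control culture they were Itgb8 for CTL at 4 h against START (-0.38 to 0.21), and Itga3 (-0.19 to 0.06), Itga6 (-0.28 to 0.15) and Itgb8 (-0.23 to 0.77) for CTL at 12 h against CTL at 8 h.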
